A study of Mus musculus with 4 samples.

Results

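The genes described here are 10 regulators and markers of naive and quiescent T cells: Tcf7, Lef1, Satb1, Foxp1, Foxo1, Klf2, Bach2, Dapl1, Igfbp4 and Actn1. They were chosen by symbol, and each has 1 row among the 14226 rows of the deposited expression table. Levels are in FPKM, fragments scaled to transcript length and to library size. All 10 genes had a mean above the minimum of 1 FPKM, as did every row. RNA sequencing compared splenocytes, the mixed cell suspension of the spleen, from 2 C57BL/6N mice carrying the vcS5 transgene (genotype vcS5 +/T) with splenocytes from 2 wild-type C57BL/6N mice. The series title names an activating STAT5 mutation and peripheral T cell lymphoma, and the vcS5 columns are named for 1 transgenic line. Age, sex and the promoter driving the transgene are not given in the sources used here. The libraries are called biological replicates in the series design.

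A naive T cell circulates through lymphoid organs without dividing until it meets its antigen. Transcription factors hold it in that state: TCF-1 (encoded by Tcf7) and LEF-1 keep the capacity for self-renewal, FOXO1 and KLF2 maintain the interleukin 7 receptor and the homing receptors, and FOXP1 and BACH2 restrain activation and effector genes. STAT5 carries the interleukin 2, 7 and 15 signals that keep such cells alive. Several of these factors also act in B cells, which make up much of a normal spleen, so in whole splenocytes their transcripts come from more than 1 cell type.

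Transcripts of the 10 genes did not move as a block. By limma, 3 were higher in vcS5 spleen (Tcf7, Satb1 and Dapl1), Bach2 was lower, and the other 6 did not pass. Of all rows in the table, 8.72% passed the same test, 4.59% as higher and 4.13% as lower in vcS5. The threshold was an adjusted p of 0.05 over all rows, and log2 changes are vcS5 minus wild type on log2(FPKM + 1). The median log2 change of the 10 genes was 0.12, against 0.001 over all rows. It turned to -0.0787 when wild-type replicate 1 was left out and reached 0.326 when wild-type replicate 2 was, and leaving out vcS5 replicates 1 and 2 in turn gave 0.0526 and 0.195. It was 0.32 with libraries rescaled to the same FPKM sum, so no direction is given for the 10 genes as a whole. An unadjusted p under 0.05 was reached by 5 of the 10, the fifth being Lef1, and by 25.3% of all rows. In the authors' deposited table a q under 0.05 was given for 4 of the 10 (Tcf7, Lef1, Satb1 and Dapl1) and for 11.5% of all rows. In bulk samples fewer cells of a type and less RNA per cell cannot be told apart.

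**Figure D1:**
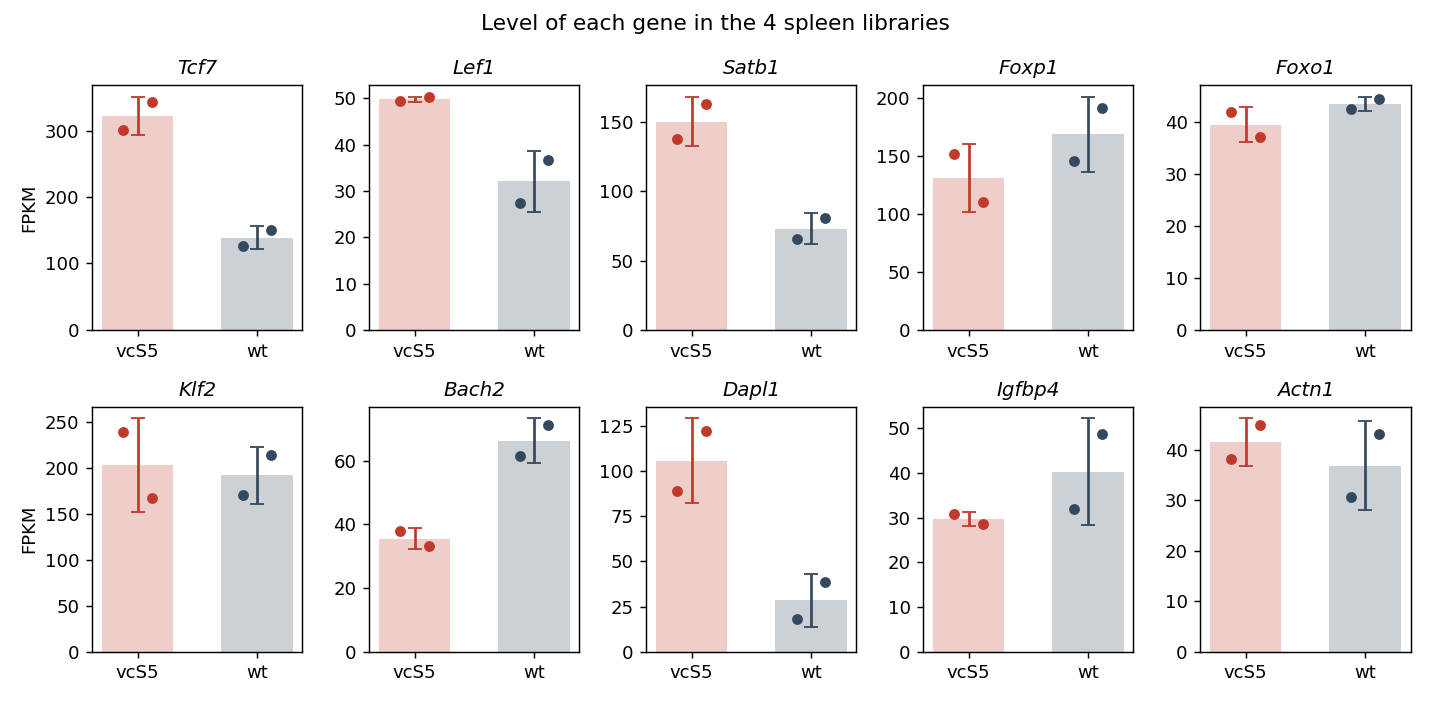
FPKM of each of the 10 genes in the 2 vcS5 libraries (red, left) and the 2 wild-type libraries (dark, right), with bars at the group mean and whiskers of 1 SD (n = 2). Tcf7, Lef1, Satb1 and Dapl1 lie higher in both vcS5 libraries, and Bach2 lies lower, at 37.9 and 33.2 FPKM against 61.3 and 71.2 FPKM.

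Tcf7 (mm10 chromosome 11, 52252281 to 52286179, minus strand) encodes TCF-1, an HMG box factor that binds DNA with beta-catenin or Groucho/TLE corepressors. Its level was 301 and 343 FPKM in the vcS5 libraries, against 126 and 151 FPKM in the wild-type libraries. The groups did not overlap, and mean FPKM was 2.32-fold higher in vcS5. The limma log2 change was 1.21 with SE 0.171 and adjusted p = 0.0205. Tcf7 was the third most abundant of the 10 genes in wild type and the most abundant in vcS5, where it stood above 97.8% and 97.9% of all rows. A630014C17Rik, which shares its locus, had 2.14 and 2.28 FPKM in vcS5 and 0.692 and 1.09 FPKM in wild type. In the authors' deposited table the log2 fold change of Tcf7 was 1.22, with a q of 0.000995.

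Lef1 (chromosome 3, 131110471 to 131224356, plus strand) encodes LEF-1, the close relative of TCF-1. It stood at 49.3 and 50.2 FPKM in vcS5 and at 27.5 and 36.7 FPKM in wild type. Both vcS5 values lay above both wild-type values, but the log2 change of 0.63 (SE 0.178) did not pass, with an adjusted p of 0.102 by limma and an unadjusted 95% interval of 0.18 to 1.09. In the authors' deposited table Lef1 had a log2 fold change of 0.63 with a q of 0.00732. The 2 sources thus differ on this gene. Rescaling every library to the same FPKM sum also brought Lef1 past the limma threshold, at a log2 change of 0.82 and an adjusted p of 0.0368, a scaling that raised the median of all rows by 0.17.

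Satb1 (chromosome 17, 51736187 to 51833290, minus strand) encodes an organiser of chromatin loops that is abundant in thymocytes and naive T cells. Satb1 had 138 and 163 FPKM in vcS5 libraries, against 65.3 and 81.1 FPKM in wild-type libraries. The groups were separate, and the mean was 2.06-fold higher in vcS5 (limma log2 change 1.03 with SE 0.179 and adjusted p = 0.0330).

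Among the forkhead and Kruppel-like factors, none passed the test. Foxo1 (chromosome 3, 52268337 to 52350109, plus strand), whose product maintains Il7r and Klf2 transcription in naive T cells, had 41.8 and 37.1 FPKM in vcS5 and 42.3 and 44.4 FPKM in wild type. The 2 groups nearly touch, and the log2 change was -0.14 (SE 0.138, adjusted p = 0.619 by limma), with an unadjusted 95% interval of -0.49 to 0.21. With libraries rescaled to the same FPKM sum the value was 0.06. A noncoding transcript, Gm20402, shares the Foxo1 locus, at 28.1 and 24.7 FPKM in vcS5 and 22.3 and 29.4 FPKM in wild type, and reads of overlapping genes cannot be told apart without strand.

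Foxp1, whose product restrains Il7r and keeps naive T cells quiescent and which B cells also express strongly, had 152 and 111 FPKM in vcS5 against 146 and 192 FPKM in wild type. Its values overlapped between groups (limma log2 change -0.37 with SE 0.230 and adjusted p = 0.399). The Foxp1 row (chromosome 6, 98925318 to 99666797, minus strand) merges 3 annotated genes, Foxp1, Eif4e3 and Gm20696, so its level is that of the merged locus.

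Klf2 (chromosome 8, 72319033 to 72323998, plus strand) encodes a zinc finger factor that drives S1pr1, the receptor by which naive T cells leave lymphoid organs. At 239 and 167 FPKM in vcS5 and 171 and 214 FPKM in wild type, its groups overlapped fully. The log2 change was 0.07 (SE 0.235, adjusted p = 0.900 by limma), with an unadjusted 95% interval of -0.53 to 0.67. That interval is not a detection limit of the adjusted test, and with 2 libraries a group absence of a difference is not shown. Klf2 was the most abundant of the 10 genes in wild type and the second in vcS5.

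Bach2 (chromosome 4, 32238804 to 32586108, plus strand) was the only one of the 10 to fall by the limma test. BACH2 is a transcriptional repressor that restrains effector differentiation in T cells and plasma cell differentiation in B cells. Bach2 was at 37.9 and 33.2 FPKM in vcS5, against 61.3 and 71.2 FPKM in wild type, and mean FPKM in vcS5 was 0.536 of that in wild type. The groups did not overlap (limma log2 change -0.88 with SE 0.154 and adjusted p = 0.0333), and a lower change was seen in 6.26% of all rows. In the authors' deposited table the log2 fold change of Bach2 was -0.90 with a q of 0.191, so that source does not call it. Its locus also holds the antisense gene Bach2os, at 17.1 and 24.8 FPKM in vcS5 and 23.6 and 45.9 FPKM in wild type, which the kit does not separate by strand.

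The fall of Bach2 stood beside lower B cell markers. The summed level of 14 B cell markers, among them Pax5 and Ms4a1, was 1634 and 1565 FPKM in vcS5, against 3846 and 4659 FPKM in wild type, and 13 of the 14 fell. The part of B cell content in the Bach2 value was not tested.

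Dapl1, Igfbp4 and Actn1 are not transcription factors but mark naive T cells in expression profiles. Dapl1 (chromosome 2, 59484653 to 59505020, plus strand), named for its similarity to death associated protein, had 89.0 and 122 FPKM in vcS5 and 18.1 and 38.8 FPKM in wild type. The wild-type libraries differed 2.14-fold between themselves, yet both lay below both vcS5 libraries, and the mean was 3.71-fold higher in vcS5. The limma log2 change, 1.93 with SE 0.379 and adjusted p = 0.0438, exceeded that of 98.9% of all rows, and Dapl1, the least abundant of the 10 in wild type, was the fifth in vcS5. Dropping the variance trend ended the call of Dapl1 (limma adjusted p = 0.0519).

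Igfbp4 (chromosome 11, 99041116 to 99054392, plus strand), encoding a secreted binding protein for insulin-like growth factors, had 30.8 and 28.6 FPKM in vcS5 against 31.9 and 48.7 FPKM in wild type. The vcS5 values lay just under the lower wild-type value, and the log2 change of -0.40 (SE 0.226) did not pass (adjusted p = 0.350 by limma). It was the least abundant of the 10 genes in vcS5. Actn1 (chromosome 12, 80167542 to 80260371, minus strand), encoding the actin crosslinker alpha-actinin 1, had 38.1 and 44.8 FPKM in vcS5 and 30.6 and 43.1 FPKM in wild type. Those ranges overlapped, and the limma log2 change was 0.18 with SE 0.208 and adjusted p = 0.667.

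**Figure D2:**
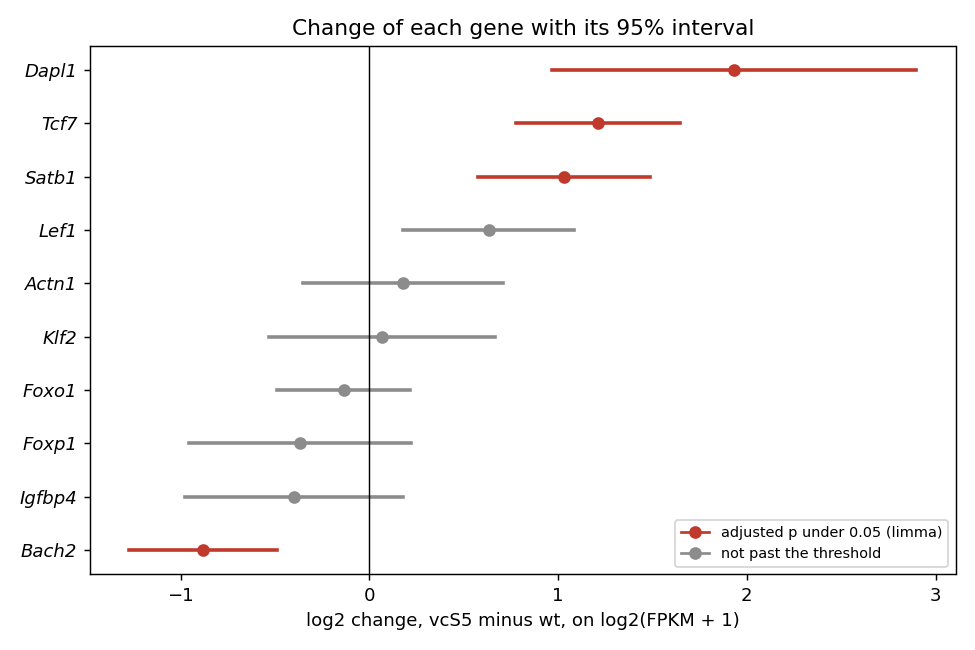
Log2 change of each of the 10 genes, vcS5 minus wild type on log2(FPKM + 1), with its unadjusted 95% interval from limma, in red where the adjusted p is under 0.05. Dapl1, Tcf7 and Satb1 stand at 1.93, 1.21 and 1.03, Bach2 at -0.88, and the 5 other intervals below Lef1 include 0.

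By order of level, Klf2, Foxp1 and Tcf7 were the 3 most abundant of the 10 genes in wild type, at means of 192 ± 30.9, 169 ± 32.3 and 139 ± 17.3 FPKM (SD, n = 2). In vcS5 the order was Tcf7, Klf2, Satb1 and Foxp1, at 322 ± 29.1, 203 ± 50.9, 150.5 ± 18.0 and 131 ± 29.3 FPKM (SD, n = 2). Tcf7 in vcS5 lay above each library value of the other 9 genes. Klf2 and Satb1 nearly met there, at 167 FPKM in the lower Klf2 library and 163 FPKM in the higher Satb1 library, and Satb1 and Foxp1 overlapped. In wild type Klf2 overlapped Foxp1, and Foxp1 overlapped Tcf7.

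Across libraries without regard to the test, 4 genes (Tcf7, Lef1, Satb1 and Dapl1) were higher in both vcS5 libraries than in both wild-type libraries, and 3 (Foxo1, Bach2 and Igfbp4) were lower. Over all rows these shares were 26.9% and 27.5%. All 10 genes were higher in wild-type replicate 2 than in wild-type replicate 1, as were 56% of all rows. The sum of neutrophil markers was also higher in wild-type replicate 1. The summed level of 9 neutrophil markers was 997 and 957 FPKM in the vcS5 libraries and 6064 and 1831 FPKM in wild-type replicates 1 and 2, and the part of this difference in the values of the 10 genes was not tested. S100a8 and S100a9 made up 2932 and 2026 FPKM of the sum in wild-type replicate 1. Csf3r, the only neutrophil marker called by limma, went the other way, at 35.8 and 44.0 FPKM in wild-type replicates 1 and 2. Between the vcS5 libraries the 10 genes split evenly, with 5 higher in replicate 2.

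With 1 library left out, between 0 and 1 of the 10 genes passed, namely Dapl1 when wild-type replicate 2 was dropped (limma adjusted p = 0.0431). In the same fits 0.499% to 1.72% of all rows passed. No gene of the 10 passed without wild-type replicate 1, without vcS5 replicate 1 or without vcS5 replicate 2. Tcf7, Satb1, Dapl1 and Bach2 kept the sign of their changes in all 4 of these fits, with log2 changes of 1.08 to 1.34, 0.88 to 1.19, 1.40 to 2.46 and -0.99 to -0.77.

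The higher Tcf7, Satb1 and Dapl1 stood beside higher T cell markers of the whole spleen. The summed level of 16 pan T cell markers was 2679 and 3502 FPKM in vcS5, against 981 and 1334 FPKM in wild type, and 10 rose and 1, Trat1, fell. The CD8 markers Cd8a and Cd8b1 summed to 957 and 1105 FPKM in vcS5 and to 125 and 167 FPKM in wild type. The CD4 T cell genes Cd4, Zbtb7b and Cd40lg summed to 51.9 and 56.6 FPKM in vcS5 and to 94.6 and 109.9 FPKM in wild type, and all 3 fell. How far T cell content enters the changes of the 10 genes was not tested, and their levels were set against the CD3 genes of the same library as a description.

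The mean log2(FPKM + 1) of Cd3d, Cd3e and Cd3g was 7.81 and 8.11 in vcS5 and 6.29 and 6.64 in wild type, a difference of 1.49. Relative to that mean, Tcf7 was at 0.44 and 0.32 in vcS5 and at 0.71 and 0.61 in wild type, on the log2 scale. Satb1 was at -0.69 and -0.75 in vcS5 and at -0.24 and -0.28 in wild type. Both genes lay lower on this scale in both vcS5 libraries, as did 94.8% of all rows. Lef1 was at -2.15 and -2.43 in vcS5 and at -1.46 and -1.40 in wild type. Dapl1 alone of the 10 was higher in both vcS5 libraries on this scale, as in 1.3% of all rows, at -1.31 and -1.16 in vcS5 and at -2.03 and -1.32 in wild type. The distance between Dapl1 in vcS5 replicate 1 and in wild-type replicate 2 was small beside the spread of wild type.

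Bach2 differed most on this scale among the 10, by -2.37 on average, at -2.52 and -3.01 in vcS5 and at -0.33 and -0.47 in wild type. Foxp1, Foxo1, Igfbp4, Klf2 and Actn1 had mean differences of -1.86, -1.63, -1.89, -1.43 and -1.31 on this scale. The median over all rows was -1.49. In the limma fit on this scale 8 of the 10 genes were lower, among 92.2% of all rows, and 0 were higher, among 0.773% of all rows, and in both directions 92.9% of all rows passed. The error of the CD3 mean is shared by every row, and nothing is read from those calls. The exceptions stood at 0.44 with SE 0.262 (limma adjusted p = 0.131) for Dapl1 and -0.28 with SE 0.203 (limma adjusted p = 0.203) for Tcf7. Dapl1 stood at 0.0859 on this scale without wild-type replicate 1 and at 0.79 without wild-type replicate 2 (limma adjusted p = 0.0169). For none of the 10 genes is the ratio to CD3 a level per T cell, and Foxp1, Foxo1, Bach2 and Klf2 are also made by other spleen cells.

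**Figure D3:**
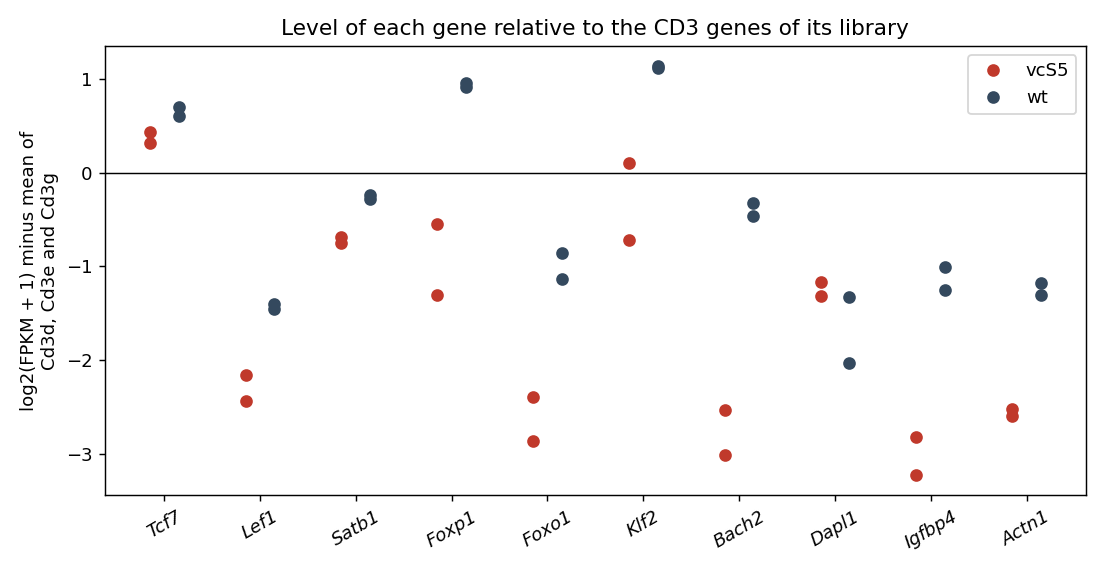
Level of each of the 10 genes in each library as log2(FPKM + 1) minus the mean of Cd3d, Cd3e and Cd3g in that library, vcS5 in red (left of each pair) and wild type in dark. In 9 genes both vcS5 points lie below both wild-type points, as in 94.8% of all rows, and Dapl1 is the exception.

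Upstream sequence is shown for the 3 called genes whose window held at least 1 of 4 motifs of the factors described above. RefSeq windows (build GRCm38.p6) of 250 bases before a transcript start were found for all 10 genes, taking the start nearest the 5′ end of the deposited row. The motifs, searched on both strands, were TTCNNNGAA for STAT factors, CTTTGA for TCF/LEF, GTAAACA for FOXO and CACACCC for KLF. Of 32851 RefSeq windows of that length, 7.02%, 13.8%, 3.17% and 6.93% hold them. The share of windows holding at least 1 of the 4 was not computed. Nothing is therefore read from how many of the 10 genes, called or not, had a match. Capitals mark the matches, each written 5′ to 3′ on the strand of the gene.
Dapl1, chr2:59484403-59484652, plus strand: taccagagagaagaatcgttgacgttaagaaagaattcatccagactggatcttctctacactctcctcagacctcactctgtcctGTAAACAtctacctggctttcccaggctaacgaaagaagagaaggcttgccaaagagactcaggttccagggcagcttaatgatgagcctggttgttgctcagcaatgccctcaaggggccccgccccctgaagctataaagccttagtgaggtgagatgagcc
Satb1, chr17:51833291-51833540, minus strand: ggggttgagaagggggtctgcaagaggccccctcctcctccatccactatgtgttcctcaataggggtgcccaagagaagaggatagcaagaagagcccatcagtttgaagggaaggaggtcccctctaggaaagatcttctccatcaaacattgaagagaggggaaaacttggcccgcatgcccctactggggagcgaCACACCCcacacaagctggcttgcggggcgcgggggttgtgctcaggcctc
Bach2, chr4:32417185-32417434, plus strand: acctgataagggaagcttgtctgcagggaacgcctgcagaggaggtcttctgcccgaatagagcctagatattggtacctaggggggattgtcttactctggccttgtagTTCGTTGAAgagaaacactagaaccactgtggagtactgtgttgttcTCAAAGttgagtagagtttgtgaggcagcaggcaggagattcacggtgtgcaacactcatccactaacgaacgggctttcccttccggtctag

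The Dapl1 window holds the FOXO letters at positions -164 to -158 from the start, and the Satb1 window holds the KLF letters at -51 to -45. The Bach2 window, at an internal start 178631 bases from the 5′ end of the row, holds the STAT letters at -140 to -132 and the TCF/LEF letters on the opposite strand at -93 to -88. None of the 4 motifs was found in the Tcf7 window (chr11:52283015-52283264), which precedes an internal start 3165 bases from the 5′ end of the row and is not the sequence before that end. Among genes that did not pass only Igfbp4 had a match, to KLF. The Foxp1 window, without a match, likewise precedes an internal start, 145804 bases from the 5′ end of its row. The matches do not overlap. They describe letters in these windows and no binding was measured.

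Genes that act with the 10 were followed by lists. Their counts stand beside the background of 4.59% higher and 4.13% lower, with no test of the list, and some genes, such as Il7r, S1pr1 and Ccr7, are in more than 1 list. The partners and targets of TCF-1 and LEF-1 counted 2 risers and 1 faller among 13 measured members, and their median log2 change was 0.17. Axin2, the feedback inhibitor that TCF/LEF and beta-catenin induce, had 13.7 and 13.8 FPKM in vcS5 against 4.70 and 4.98 FPKM in wild type (1.33 on the log2 scale, limma adjusted p = 0.0108). The median of the 16 pan T cell markers was 1.32, and the part of T cell content in the Axin2 value was not tested. Id2, an inhibitor of E proteins that favours effector cells, rose by 1.25 on the log2 scale, while Id3, its relative linked to naive and memory cells, fell by 0.80. Whole spleen RNA does not assign either change to a cell type. Ctnnb1, which encodes beta-catenin, had 111 and 102 FPKM in vcS5 and 106 and 119 FPKM in wild type, and the Tle1, Tle2, Tle3, Tle4 and Tle6 corepressor genes did not pass.

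Of 16 measured targets of FOXO1 and KLF2, 4 rose and 3 fell, and the median was 0.11. Il7r, the interleukin 7 receptor chain, had 174 and 199.5 FPKM in vcS5 against 39.3 and 41.0 FPKM in wild type, the largest change of this list at 2.19. S1pr1, the exit receptor that KLF2 drives, had 133 and 131 FPKM in vcS5 and 122 and 127 FPKM in wild type. S1pr1 did not pass, and neither did Klf2 itself. Cxcr3 rose by 1.94 on the log2 scale and Trib1 changed by -1.19.

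Of 24 other quiescence factors, 3 rose and 1 fell, and the median was 0.14. Bcl11b, a T lineage factor, rose by 1.24 and Slfn1, a schlafen gene linked to resting thymocytes, by 1.02. Klf4, which limits division of naive CD8 T cells, changed by -1.41, at 8.55 and 7.07 FPKM in vcS5 and 22.3 and 22.2 FPKM in wild type. Marker medians were -1.38 for B cells, -1.48 for neutrophils, -0.46 for macrophages and monocytes and -0.49 for dendritic cells. Whole spleen RNA does not assign the fall of Klf4 to T cells, and the part of cell content was not tested. Family relatives of the 10 genes showed no calls by limma among 13 measured, with a median of -0.18 and 2, Actn2 and Foxp4, at an unadjusted p under 0.05, as for 25.3% of all rows. Actn2, an actinin relative of Actn1, had 11.1 and 14.8 FPKM in vcS5 and 3.71 and 6.13 FPKM in wild type (1.26 on the log2 scale, limma adjusted p = 0.0503), the largest change of this list. Of the forkhead relatives Foxo3 had 16.6 and 16.4 FPKM in vcS5 and 16.9 and 19.3 FPKM in wild type, and Foxp4 had 22.9 and 21 FPKM in vcS5 and 28.6 and 37.9 FPKM in wild type.

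Of 20 other naive T cell markers, 5 rose and 1 fell, and the median was 0.16. Besides Il7r, the costimulators Cd27 and Cd28 rose by 1.27 and 1.14, and Tdrp by 1.47. Ccr9, a gut homing receptor, changed by -0.91, and Ccr7, the lymph node homing receptor, had 97.6 and 97.3 FPKM in vcS5 and 75.8 and 91.1 FPKM in wild type without passing. Effector regulators and products, the opposite state, numbered 12 risers and 1 faller, Irf4, among 20. Their median was 1.41, beside 1.32 for the 16 pan T cell markers. The part of T cell content in the effector values was not tested. Tbx21 and Eomes, the T-box factors of effector and memory cells, rose by 1.48 and 2.19, and the granzyme genes Gzmb and Gzmm by 3.50 and 4.95. The granzyme genes Gzma, at -0.42, and Gzmk, at 1.41, did not pass. Prdm1, encoding the effector and plasma cell factor BLIMP-1, had 4.13 and 3.42 FPKM in vcS5 and 3.53 and 2.75 FPKM in wild type and did not pass. Tcf7, Satb1 and Dapl1 were thus higher in the same libraries as effector genes, which whole spleen RNA does not assign to the same or to different cells.

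**Figure D4:**
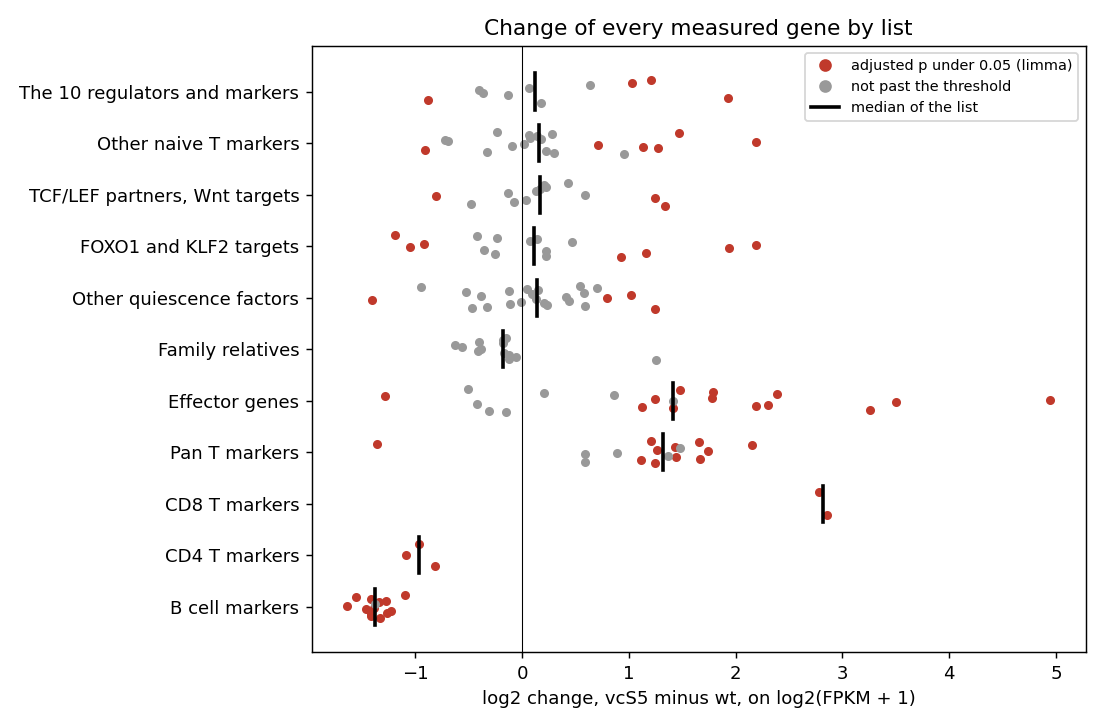
Log2 change of every measured gene in each list, vcS5 minus wild type on log2(FPKM + 1), with the list median as a black bar and genes at an adjusted p under 0.05 in red. The 10 genes have a median of 0.12, between 1.41 for effector genes and -1.38 for B cell markers.

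The rows most like each called gene over the 4 libraries were sought by the Euclidean distance of centred log2(FPKM + 1), among 8419 named rows with a mean of at least 5 FPKM. Nearest to Tcf7 were Slc12a7, Golm1 and Zap70, at distances of 0.0472 to 0.0504. Nearest to Satb1 were Pik3cd, Plcg1 and Vim, at 0.0621 to 0.0848. Bach2 was followed most closely by Snx29, Ehd4 and Pxk, at 0.0318 to 0.0395. Dapl1 had no neighbour as close, with Hid1 at 0.222, Ubash3a at 0.324 and Unc5cl at 0.441. With 4 libraries in 2 groups, these distances describe a level difference and the spread within groups.

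As the check of the transgene, Stat5a had 105 and 123 FPKM in vcS5 and 13.9 and 17 FPKM in wild type, and Stat5b had 23.4 and 24.5 FPKM in vcS5 and 22 and 26.5 FPKM in wild type. Transcripts of a transgene and of the resident gene are not distinguished in these values. Median FPKM was between 12.16 and 12.58 over the 4 libraries, and absolute depth is unknown from FPKM values. In all, 1241 rows passed, 653 higher and 588 lower, and 972 and 402 when libraries were rescaled to the same FPKM sum. Other marker lists gave these sums. Plasma cell genes summed to 703 and 506 FPKM in vcS5 and 1230 and 817 FPKM in wild type, and natural killer genes to 175 and 156 FPKM in vcS5 and 66.5 and 60.2 FPKM in wild type. The natural killer genes moved apart, since Klra8, Klre1 and Eomes rose while Ncr1, at 0.635 and 0.776 FPKM in vcS5 and 13.7 and 15.1 FPKM in wild type, fell. Klrb1c was lower without passing (limma adjusted p = 0.0757), at 8.12 and 5.62 FPKM in vcS5 and 11.9 and 13.9 FPKM in wild type. The natural killer sum is thus not read as cell content. Macrophage and monocyte genes summed to 720 and 827 FPKM in vcS5 and 744 and 521 FPKM in wild type, of which Ly6c2 made up 483 and 525 FPKM in vcS5 and 127 and 78.8 FPKM in wild type, and the list median was -0.46. The dendritic cell genes summed to 22.2 and 23 FPKM in vcS5 and 36.6 and 33.2 FPKM in wild type. Erythroid genes summed to 490 and 1428 FPKM in vcS5 and 946 and 1328 FPKM in wild type. Of the stroma list only Pecam1 was measured, at 31.6 and 35.7 FPKM in vcS5 and 48.7 and 58.1 FPKM in wild type.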

How the data were processed

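RNA from flash-frozen spleen suspensions was extracted with Trizol and made into TruSeq v2 libraries, per the labels' protocols, a kit that does not mark strand. Bowtie2 2.1.0, TopHat2 2.0.9, Cufflinks, Cuffdiff 2.1.1 and mm10 are named in the submitters' processing notes, with no settings. The authors deposited FPKM for each of 4 libraries and a group FPKM, per the file headers. A log2 fold change, a p-value and a q-value per row are likewise the authors', as deposited. Row coordinates are given 1-based on mm10. FPKM is scaled to library size, in a way that the notes do not state. Depending on that scaling, a change in a few abundant transcripts can move the others. No counting interval can be given.

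Values were transformed as log2(FPKM + 1), which understates changes of low rows. All 14226 rows and 4 libraries were fitted in limma 3.58.1 (R 4.3.3) on group alone, with a trended variance. Tests were two-sided, p-values were adjusted over all rows by Benjamini-Hochberg, and the threshold was 0.05. Requiring a mean of 1 FPKM took out 0 rows. A second fit subtracted the mean of Cd3d, Cd3e and Cd3g in each library. P-values rest on the spread between 2 libraries a group, moderated toward that of rows of similar level (3.17 prior and 2 residual degrees of freedom). An exact permutation test of such groups could not pass, so none is given. The fit was checked on simulated data in 20 runs, with known changes in 200 rows. Those rows had a mean of at least 5 FPKM and were fewer than the 1241 rows called in the data. In that setting, which the data need not match, the fit recovered 13.3% of 2-fold, 86.9% of 4-fold and 95.8% of 8-fold changes. A gene that did not pass is thus not shown to be unchanged. The 10 genes and the lists were chosen with earlier results of these data known. Named genes are the 10, up to 4 called members per list, members a sentence on a list needs, and the 3 nearest rows of each called gene. Alternatives were a pseudocount of 0.1, a filter at a mean FPKM of 5, no filter, no variance trend, quantile normalization, rescaling to the same FPKM sum, a replicate block and leaving out each library. Some list members are not reported here by name.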

Additional observations from a re-analysis of the deposited data

How the results depend on the processing

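Of the 10 genes, 4 passed; 3 passed without the variance trend or with the replicate block, 5 with rescaling to the same FPKM sum, and 0 to 1 with a library left out, where all rows gave 71 to 245 calls against 1241. Each left-out fit has 1 residual degree of freedom and assumes that the lone library varies like the other group. Those calls are 0.499% to 1.72% of all rows. Relative to CD3, 6 to 9 of the 10 passed over the alternatives, beside 84.7% to 94.1% of all rows in those that test every row. Rescaling gave medians of 0.32 for the 10 genes, 0.31 for TCF/LEF partners, 0.30 for FOXO1 and KLF2 targets, 0.33 for other quiescence factors, -0.00651 for family relatives and 0.35 for other naive markers, turned Foxo1 to 0.0551, and moved the median of all rows to 0.18. A pseudocount of 0.1 gave 1.58 for effector genes. With a library left out, the medians ran from -0.0787 to 0.326 for the 10 genes, 0.0833 to 0.22 for TCF/LEF partners, 0.0441 to 0.12 for FOXO1 and KLF2 targets, 0.10 to 0.21 for other quiescence factors, -0.26 to -0.16 for family relatives, 0.0441 to 0.34 for other naive markers and 1.16 to 1.65 for effector genes. Klf2 ran from -0.19 without vcS5 replicate 1, through -0.0969 without wild-type replicate 1, to 0.324, and Actn1 from -0.0605 without wild-type replicate 1 to 0.421. Igfbp4 ran from -0.70 to -0.10, Foxp1 from -0.59 to -0.14, Foxo1 from -0.22 to -0.0521 and Lef1 from 0.43 to 0.83, none of them past the threshold. The cause of these shifts was not tested. With the replicate block, Bach2 had an adjusted p of 0.0566 by limma, Tcf7 relative to CD3 one of 0.0376, and all rows gave 1028 calls. The labels share only numbers between groups: deviations of same-numbered libraries correlated at 0.18 across rows, over 2 pairs, which does not establish pairing. Depth is unknown, so no limit of detection is given.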
